A study of Mus musculus with 9 samples.

Results

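The 10 genes described here encode transcription factors of photoreceptors: *Crx*, *Nrl*, *Nr2e3*, *Otx2*, *Rxrg*, *Thrb*, *Rorb*, *Neurod1*, *Prdm1* and *Mef2d*. They were taken by gene symbol from the deposited gene tables, which list 25239 gene names, by a rule that reads symbols and no measured value, although earlier results of these data were known when the genes were listed. All 10 passed the filter on low values, a mean of at least 1 TPM (transcripts per 1000000, a level per length of transcript) over all 9 libraries, as did 15198 names in all. Each library was made from the whole retinas of 1 mouse of the C57BL/6J background at P42. There were 3 +/+ mice, which carry no knock-in and come from the same litters, 3 heterozygous *Rbpms*-CreERT2/+ mice (Cre/+) and 3 homozygous *Rbpms*-CreERT2/CreERT2 mice (Cre/Cre). The knock-in places P2A-CreERT2, a tamoxifen-dependent Cre recombinase, behind the last codon of *Rbpms*, a gene that marks retinal ganglion cells, so that the cassette itself lies in none of the 10 genes. The question asked of these libraries was whether the knock-in disturbs the retinal transcriptome, and the RNA-Seq methods name no tamoxifen for these animals.

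Photoreceptors are the rods, which serve dim light, and the cones, which serve colour and daylight. Their identity is set by a small circuit of transcription factors. OTX2 commits progenitors to the photoreceptor lineage and CRX, its homeodomain relative, drives photoreceptor genes at large. RORB and CRX act ahead of NRL, the basic leucine zipper factor that directs cells to the rod fate, and NRL acts ahead of NR2E3, an orphan nuclear receptor that helps to turn on rod genes and to repress cone genes in rods. In cones, thyroid hormone receptor beta (*Thrb*) and retinoid X receptor gamma (*Rxrg*) pattern the opsins. NEUROD1 supports the maintenance of photoreceptors, PRDM1 holds newborn photoreceptors back from the bipolar fate, and MEF2D works with CRX at photoreceptor genes. Several of these factors are also made by other retinal neurons, OTX2 by bipolar cells among them. In whole retina, fewer cells of a type and less RNA per cell cannot be told apart.

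The promoters of 4 of the genes are shown, picked after their values were seen. *Crx*, *Neurod1* and *Thrb* had the smallest p in Cre/+ retinas, and *Rorb* had the widest spread between libraries. No result below uses these sequences, and a link between them and the values was not tested. Each line gives the 250 bases before a RefSeq start site, read 5′ to 3′ on the strand of the gene (GRCm38.p6, the assembly of mm10). Capitals mark the letters TAATCC, the core bound by CRX and OTX2, TGCTGA, an element of NRL sites, and AGGTCA, the element shared by many nuclear receptors, each on either strand.
*Crx* (chr7:15879956-15880205, minus strand): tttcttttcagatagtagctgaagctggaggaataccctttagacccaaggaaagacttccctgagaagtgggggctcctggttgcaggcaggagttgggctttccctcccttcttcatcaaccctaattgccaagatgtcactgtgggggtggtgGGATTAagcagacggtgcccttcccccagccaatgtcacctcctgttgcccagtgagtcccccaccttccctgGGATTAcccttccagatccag
*Neurod1* (chr2:79456637-79456886, minus strand): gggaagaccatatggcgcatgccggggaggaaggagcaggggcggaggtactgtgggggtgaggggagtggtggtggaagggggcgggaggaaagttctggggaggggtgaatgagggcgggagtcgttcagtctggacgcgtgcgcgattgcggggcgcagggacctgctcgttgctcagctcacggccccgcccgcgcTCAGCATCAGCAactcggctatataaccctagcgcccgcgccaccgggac
*Thrb* (chr14:17660710-17660959, plus strand): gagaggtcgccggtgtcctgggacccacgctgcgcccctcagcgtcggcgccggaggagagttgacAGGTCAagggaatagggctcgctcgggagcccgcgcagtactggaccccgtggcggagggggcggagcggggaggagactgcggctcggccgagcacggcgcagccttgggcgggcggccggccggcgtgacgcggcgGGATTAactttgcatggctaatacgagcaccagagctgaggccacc
*Rorb* (chr19:19111197-19111446, minus strand): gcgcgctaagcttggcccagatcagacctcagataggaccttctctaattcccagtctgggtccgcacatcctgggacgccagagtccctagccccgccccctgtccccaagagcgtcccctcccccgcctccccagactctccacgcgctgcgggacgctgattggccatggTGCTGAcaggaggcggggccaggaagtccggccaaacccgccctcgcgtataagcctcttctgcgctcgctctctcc
The *Crx* window held the CRX and OTX2 core at 2 places, the first bases lying at -94 and -21 from the start site. In *Neurod1* the NRL element occurred at -50 and -44, as neighbours without a gap. *Thrb* held the nuclear receptor element at -184 and the CRX and OTX2 core at -46, and *Rorb* held the NRL element at -77. Both genes have a further RefSeq start site that is not printed. Its window (chr14:17981394-17981693 for *Thrb*, chr19:19001068-19001367 for *Rorb*) held none of these elements. TPM is given per gene, so the use of the printed and the further start site cannot be told apart here. Over windows of 300 bases, all 10 genes matched RefSeq, with 16 windows between them because several have more than 1 start site. The CRX and OTX2 core was found in 3 of the 16, or 18.8%, against 7.06% of all 32851 windows, and the NRL element in 5, or 31.2%, against 19.5%. The nuclear receptor element was found in 2 of the 16, or 12.5%, against 16.3% of all windows. These are matches of letters, not of bound sites.

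The libraries differed in ways that touch the values below. Aligned bases, read from the ratio of deposited coverage to FPKM, ran from 4.05 to 4.65 gigabases per library. Rn45s, the ribosomal RNA precursor, reached 92052 TPM in Cre/Cre replicate 1 and 826.9 to 3359 TPM elsewhere. A scaling factor for that library, set by how its genes compared with their geometric mean over libraries, was 0.917, and 0.985 to 1.03 for the rest. Xist was 2.08 to 3.16 TPM in Cre/+ replicate 3, Cre/Cre replicate 1 and Cre/Cre replicate 3 and 515.9 to 585.1 TPM in the other 6 libraries, among them all 3 of +/+, so that sex and genotype were partly confounded. *Rbpms* itself was 38.4 to 43.4 TPM in +/+, 31.3 to 33.1 TPM in Cre/+ and 19.1 to 24.2 TPM in Cre/Cre, in the order of the labels.

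The photoreceptor factors ranged from among the most abundant transcripts of the retina to modest ones. In +/+ retinas, *Nrl* was highest at 2307 ± 72.5 TPM (SD, n = 3 in all such values), followed by *Crx* at 1112 ± 20.9 TPM and *Nr2e3* at 1022 ± 31.2 TPM. *Neurod1* had 638.0 ± 13.2 TPM, *Mef2d* 290.6 ± 10.1 TPM and *Otx2* 281.4 ± 3.38 TPM. Lower down came *Rorb* at 93.7 ± 2.17 TPM, *Thrb* at 45.3 ± 4.71 TPM, *Prdm1* at 14.6 ± 1.43 TPM and *Rxrg* at 11.7 ± 0.887 TPM. Of the 9 pairs of neighbours in this order, the +/+ libraries of 8 did not overlap, and only *Mef2d* and *Otx2* did, with a ratio of means of 1.03. By mean TPM over all libraries, *Nrl* stood at rank 22 of the 15198 genes tested, *Crx* at 54, *Nr2e3* at 68 and *Neurod1* at 131, whereas *Thrb* stood at 4721 and *Rxrg* at 10704.

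**Figure D1:**
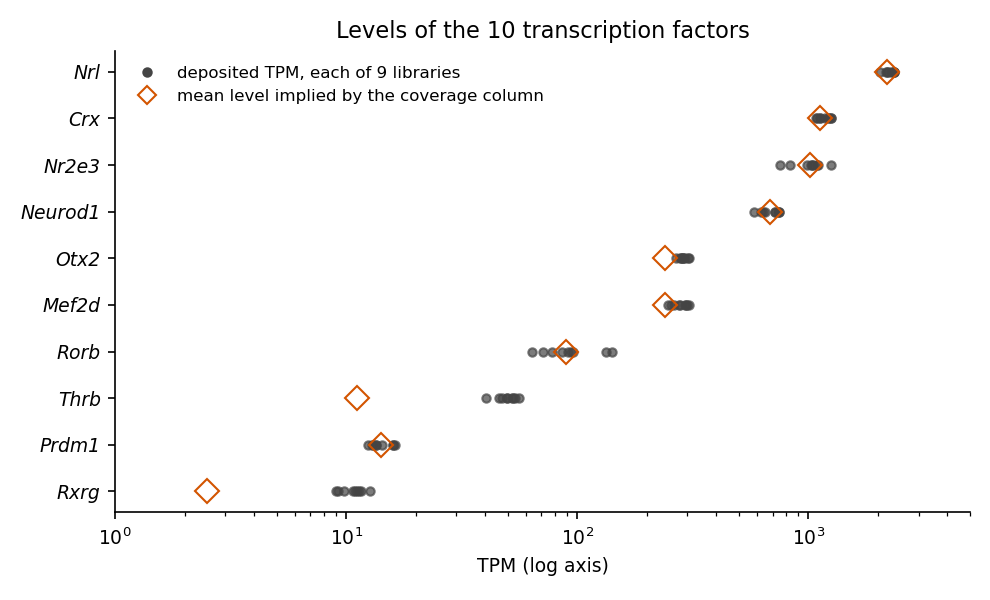
Levels of the 10 genes in TPM on a log axis, with a filled point for each of the 9 libraries and an open diamond for the mean level that the deposited coverage implies. *Nrl* is the highest and *Rxrg* the lowest, and the diamonds of *Thrb* (11.1) and *Rxrg* (2.49) lie well to the left of their points.

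The levels of the cone factors depended on which deposited column was read. For *Nr2e3*, *Neurod1* and *Prdm1*, TPM and coverage implied the same level within 1% in all 9 libraries. For *Crx*, *Nrl* and *Rorb*, TPM was 1.02 to 1.07 times the level implied by coverage, and for *Otx2* and *Mef2d* 1.17 to 1.2 times. For *Thrb* the ratio was 4.46 to 4.48 and for *Rxrg* 4.2 to 4.67. By coverage, *Thrb* would average 11.1 TPM in place of 49.7 and *Rxrg* 2.49 TPM in place of 10.7, which puts *Thrb* under *Prdm1* (14.2 by both). The ratio of each gene but *Rxrg* was nearly the same in all libraries, so that it bears on levels between genes more than on differences between genotypes. For *Rxrg* it varied more. Its log2 fold changes were -0.21 in Cre/+ and -0.22 in Cre/Cre with coverage, beside -0.20 and -0.17 with TPM. Mean depth over the gene's bases was 2184 to 3187 reads for *Nrl*, 10.8 to 16.8 reads for *Thrb* and 2.17 to 3.81 reads for *Rxrg*.

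In the deposited tables each of the 10 genes filled 1 row, at 1 position on mm10 in all libraries. *Nrl* spans chr14:55518978-55524981, *Crx* chr7:15865947-15879955 and *Nr2e3* chr9:59942771-59950079, all on the minus strand. *Otx2* lies at chr14:48657677-48667644, *Neurod1* at chr2:79452639-79456636, *Rorb* at chr19:18930609-19111196 and *Prdm1* at chr10:44437174-44458748, also on the minus strand. *Thrb* (chr14:17660960-18038088), *Rxrg* (chr1:167598362-167639623) and *Mef2d* (chr3:88142372-88172091) lie on the plus strand. The end of *Mef2d* shares 532 bases with 1700113A16Rik on the opposite strand, a gene of 2.68 TPM in +/+ replicate 1, and whether strand was used in quantifying these strand-specific libraries is not given in the sources used here. The row of *Thrb* falls inside that of Gm3629 on the opposite strand, which was listed at 0 TPM in the same library.

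Among the rod and general factors, *Nrl* differed little between genotypes. It was 2224, 2357 and 2342 TPM in +/+, 2160, 2342 and 2283 TPM in Cre/+, and 2042, 2196 and 2321 TPM in Cre/Cre. The ranges of the 3 genotypes overlapped, and the lowest value was that of Cre/Cre replicate 1. The log2 fold change, on the log2(TPM + 1) scale as in all that follow, was -0.03 in Cre/+ (95% interval -0.18 to 0.12, adjusted p = 0.903 in limma) and -0.08 in Cre/Cre (-0.23 to 0.07, adjusted p = 0.891).

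*Crx*, the homeodomain activator of rods and cones, was 1124, 1088 and 1124 TPM in +/+, 1225, 1259.5 and 1218 TPM in Cre/+, and 1082, 1179 and 1252 TPM in Cre/Cre. Every Cre/+ library lay above every +/+ library, as did replicates 2 and 3 of Cre/Cre. Cre/Cre replicate 1, the library with the high Rn45s, lay below every +/+ library. The log2 fold change was 0.15 ± 0.07 (SE) in Cre/+, with an unadjusted p of 0.047 and an adjusted p of 0.458 in limma, and 0.07 ± 0.07 in Cre/Cre (adjusted p = 0.9). With each library divided by its scaling factor (median-ratio scaling), it was 0.10 in Cre/Cre (unadjusted p = 0.0483, adjusted p = 0.592 in limma). Without Cre/Cre replicate 1 it was 0.13 (unadjusted p = 0.0251, adjusted p = 0.48 in limma). The part of Rn45s in these values was not tested. *Otx2*, its relative, had the tightest replicates, with 284.5, 277.8 and 281.8 TPM in +/+, 285.8, 304.1 and 291.7 TPM in Cre/+, and 268.7, 288.1 and 301.3 TPM in Cre/Cre. Its Cre/+ libraries also lay above those of +/+, by a log2 fold change of 0.06 (-0.09 to 0.21, adjusted p = 0.756 in limma). Replicates 2 and 3 of Cre/Cre lay above +/+ as well, and Cre/Cre replicate 1 lay below.

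*Neurod1*, the basic helix-loop-helix factor, was 650.4, 624.2 and 639.5 TPM in +/+, 716.9, 747.6 and 736.6 TPM in Cre/+, and 583.5, 714.2 and 747.0 TPM in Cre/Cre. As for *Crx*, the Cre/+ libraries lay above the +/+ libraries, replicates 2 and 3 of Cre/Cre did so too, and replicate 1 lay below all others. The log2 fold change was 0.20 in Cre/+ (0.02 to 0.38, unadjusted p = 0.0301, adjusted p = 0.426 in limma) and 0.09 in Cre/Cre (-0.09 to 0.27, adjusted p = 0.9). In Cre/Cre it was 0.12 with median-ratio scaling and 0.20 without replicate 1 (adjusted p = 0.608 and 0.385 in limma).

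*Mef2d*, the MADS-box partner of CRX, was 294.1, 279.2 and 298.4 TPM in +/+, 261.4, 292.6 and 305.3 TPM in Cre/+, and 254.6, 247.5 and 276.3 TPM in Cre/Cre. All Cre/Cre libraries lay below all +/+ libraries, and Cre/+ overlapped both. The log2 fold change was -0.16 in Cre/Cre (SE 0.08, unadjusted p = 0.053, adjusted p = 0.723 in limma) and -0.02 in Cre/+ (adjusted p = 0.935). *Prdm1*, the zinc finger repressor, was 16.2, 14.3 and 13.4 TPM in +/+, 15.9, 13.1 and 12.4 TPM in Cre/+, and 12.9, 16.0 and 13.4 TPM in Cre/Cre. The 3 genotypes overlapped, with log2 fold changes of -0.08 and -0.05 (adjusted p = 0.846 and 0.979 in limma).

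Of the cone factors, *Thrb* was 49.7, 45.9 and 40.3 TPM in +/+, 55.8, 53.8 and 52.9 TPM in Cre/+, and 47.0, 49.6 and 52.4 TPM in Cre/Cre. Cre/+ libraries lay above both other genotypes without overlap, and Cre/Cre overlapped +/+. The log2 fold change in Cre/+ was 0.26 (0.08 to 0.44), with an unadjusted p of 0.00856, the smallest among the 10 genes, and an adjusted p of 0.384 in limma. In Cre/Cre it was 0.13 (-0.05 to 0.32, adjusted p = 0.83 in limma). *Rxrg* was 12.7, 10.9 and 11.6 TPM in +/+, 9.82, 11.4 and 9.02 TPM in Cre/+, and 9.23, 11.1 and 10.7 TPM in Cre/Cre. The genotypes overlapped, with log2 fold changes of -0.20 (-0.47 to 0.07, adjusted p = 0.564 in limma) and -0.17 (-0.44 to 0.10, adjusted p = 0.862).

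**Figure D2:**
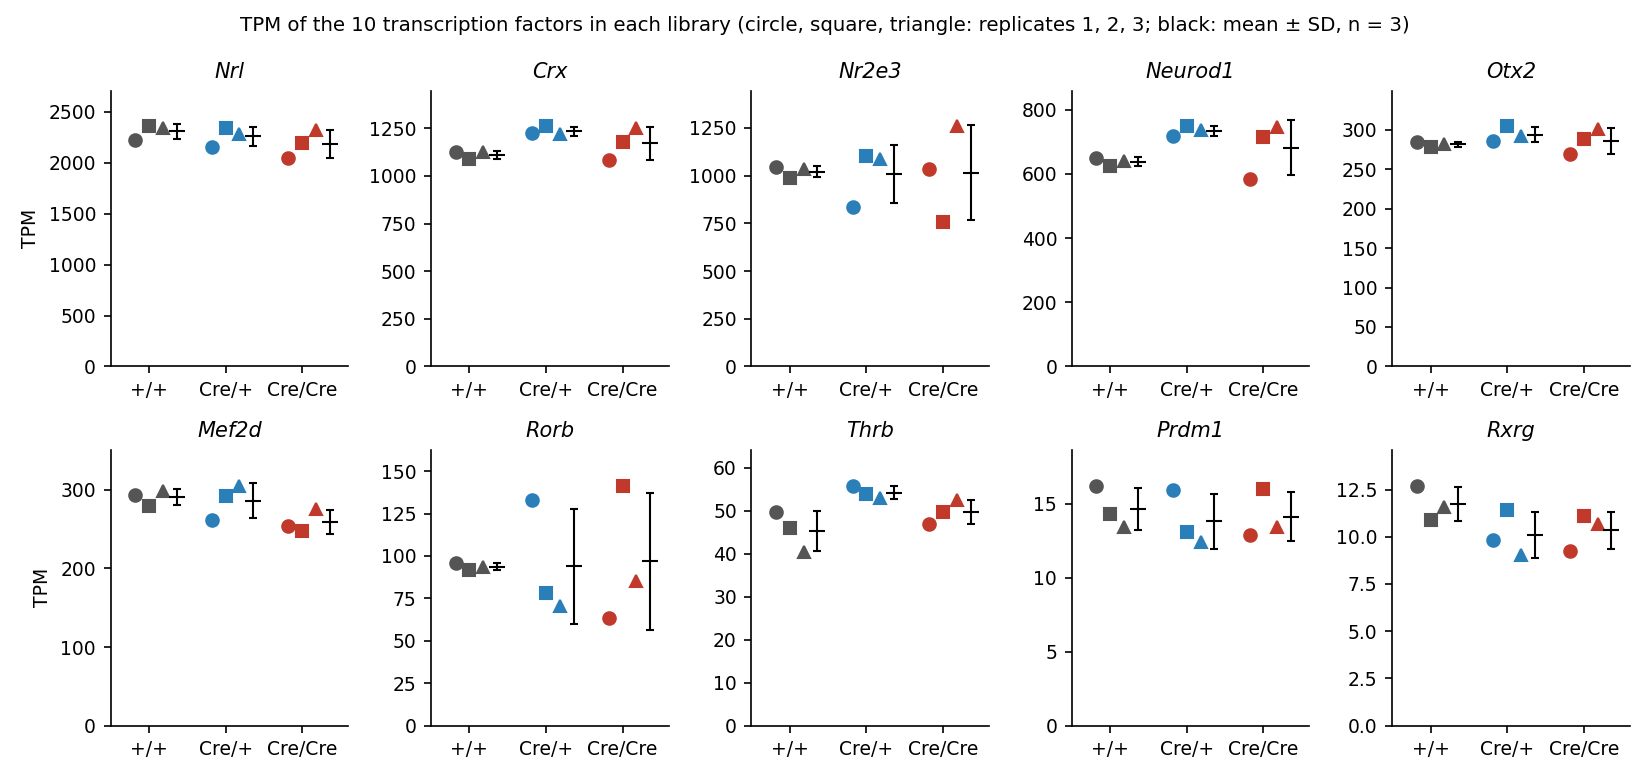
TPM of each gene (vertical axis from 0) in the 3 genotypes, where circles, squares and triangles are replicates 1, 2 and 3 and the black bar is the mean ± SD of 3 libraries. Replicates sit close together in most panels, while *Rorb* and *Nr2e3* scatter widely in Cre/+ and Cre/Cre and hardly at all in +/+.

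*Rorb* and *Nr2e3*, a pair of orphan nuclear receptors of the rod lineage, differed more within a knock-in genotype than between genotypes. *Rorb* was 95.9, 91.6 and 93.7 TPM in +/+, but 133.0, 78.0 and 70.8 TPM in Cre/+ and 63.4, 141.4 and 85.5 TPM in Cre/Cre. The highest values were those of Cre/+ replicate 1 and Cre/Cre replicate 2, and the 3 +/+ libraries lay between these and the rest. *Nr2e3* was 1046, 986.3 and 1033 TPM in +/+, 836.2, 1105 and 1087 TPM in Cre/+, and 1032.5, 757.5 and 1258 TPM in Cre/Cre. Its lowest values fell in the same libraries in which *Rorb* was highest. Over all genes tested, the pair of libraries was the highest for 5.32% and the lowest for 2.48%. The genotype means hid this spread. *Rorb* averaged 93.7, 93.9 and 96.7 TPM and *Nr2e3* 1022, 1009 and 1016 TPM in +/+, Cre/+ and Cre/Cre, and their log2 fold changes against +/+ all fell from -0.05 to -0.03. Their intervals were the widest of the 10 genes, from -0.90 to 0.79 for *Rorb* and from -0.45 to 0.40 for *Nr2e3* in Cre/+. Without Cre/+ replicate 1 the log2 fold change of *Rorb* in Cre/+ was -0.33, and without Cre/Cre replicate 2 it was -0.34 in Cre/Cre (adjusted p = 0.78 and 0.849 in limma). With Xist as a covariate it was 0.19 in Cre/+ and 0.46 in Cre/Cre (adjusted p = 0.79 and 0.973 in limma).

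Other measures of these 2 libraries stood out in part. In deviations from the genotype means over all genes tested, the 2 libraries correlated at 0.261. This was the highest value of any pair of libraries from different genotypes. Cre/Cre replicate 2 had 958.6 TPM in all over 7 genes of the lens and Cre/+ replicate 1 had 149.8 TPM, while the rest had 12.5 to 210.0 TPM, and *Lim2*, a defining gene of lens fibres, was listed at 0 in all 3 Cre/Cre libraries and in Cre/+ replicate 2. Over 7 genes of the pigment epithelium, Cre/+ replicate 1 had 102.8 TPM and Cre/Cre replicate 2 had 44.6 TPM, with 21.7 to 64.5 TPM in the rest. Xist was high in both libraries (585.1 and 546.7 TPM), in all of +/+, and also in Cre/+ replicate 2 (533.7 TPM), in which *Rorb* was 78.0 TPM. Where Xist was low, *Rorb* was 70.8 TPM (Cre/+ replicate 3), 63.4 TPM (Cre/Cre replicate 1) and 85.5 TPM (Cre/Cre replicate 3). These lay below the 91.6 to 95.9 TPM of +/+. The part of these measures in the spread of *Rorb* and *Nr2e3* was not tested. Of the other regulators of photoreceptors listed below, *Esrrb*, an orphan nuclear receptor that supports rods, had the largest spread and is named after its values were seen. In +/+ it was 313.7 to 335.6 TPM. Cre/+ replicate 1 had 334.5 TPM, Cre/Cre replicate 2 had 345.8 TPM, and the other 4 knock-in libraries had 182.4 to 235.1 TPM.

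**Figure D3:**
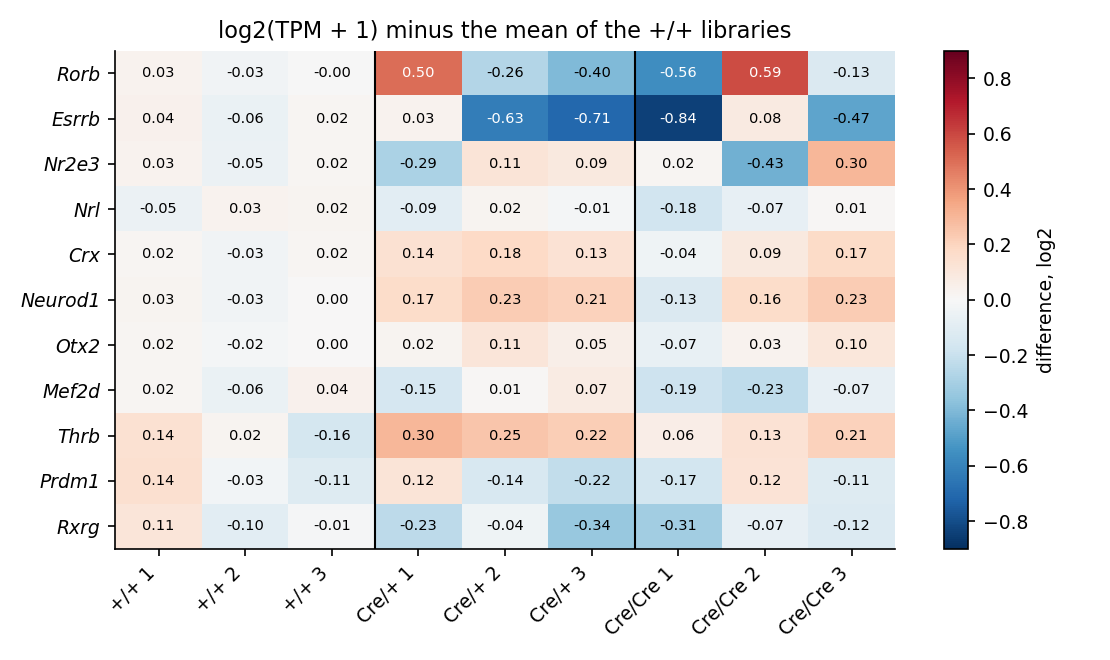
Difference of log2(TPM + 1) from the mean of the 3 +/+ libraries for the 10 genes and *Esrrb* (rows) in each library (columns), from blue (lower) to red (higher). Cre/+ replicate 1 and Cre/Cre replicate 2 are high for *Rorb* (0.50 and 0.59) and low for *Nr2e3* (-0.29 and -0.43).

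Spread within genotypes and the limma prior together set the precision for each gene. The SE in Cre/+ was 0.07 for each of *Otx2*, *Crx* and *Nrl*. The SD within genotype on the log2 scale was 0.055 for *Otx2*, 0.065 for *Crx* and 0.069 for *Nrl*, against a median of 0.13 over all genes tested. It lay below that median for 6 of the 10 genes and above it for *Rxrg* (0.131), *Prdm1* (0.156), *Nr2e3* (0.251) and *Rorb* (0.436). Of all genes tested, 85.2% had a lower SD than *Nr2e3* and 95.4% a lower SD than *Rorb*. The coefficient of variation of TPM was larger in Cre/Cre than in +/+ for 9 of the 10 genes, with *Thrb* as the exception, and this held for 65.3% of all genes. It was larger in Cre/+ than in +/+ for 8 of the 10, against 45.5% of all genes. The lowest value of 5 of the 10 genes (*Nrl*, *Crx*, *Neurod1*, *Otx2* and *Rorb*) was that of Cre/Cre replicate 1, which held the lowest value of 38.6% of all genes.

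**Figure D4:**
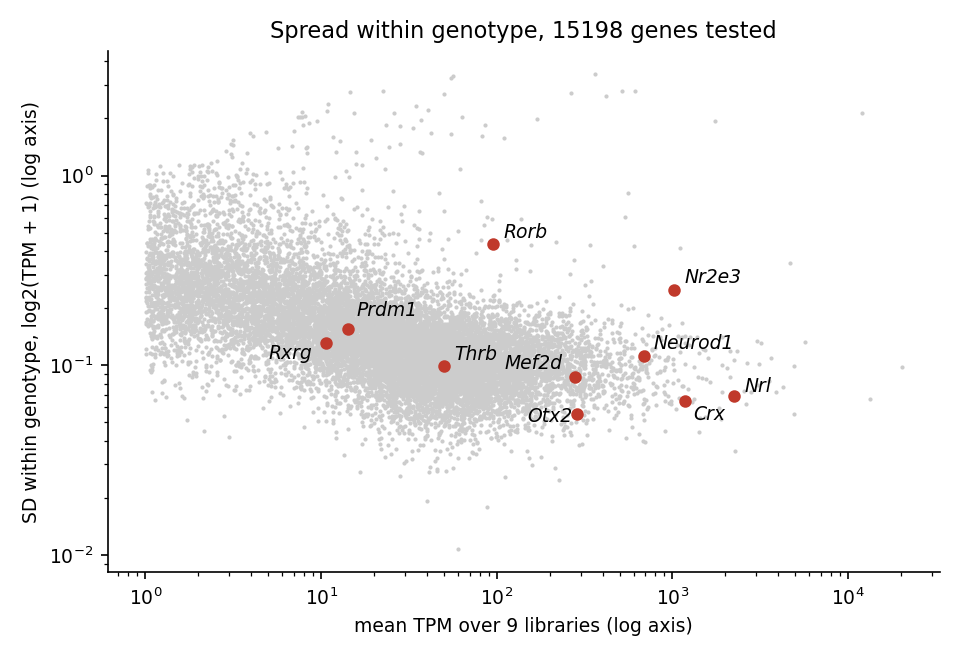
SD within genotype of log2(TPM + 1) against mean TPM, both on log axes, for the genes tested (grey) and the 10 photoreceptor factors (red). *Rorb* (0.436) and *Nr2e3* (0.251) lie above most genes, and *Otx2* (0.055), *Crx* (0.065) and *Nrl* (0.069) at the lower edge.

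Across the whole set, 0 of the 10 genes passed an adjusted p of 0.05 in limma in Cre/+ retinas, in Cre/Cre retinas, between Cre/Cre and Cre/+, or in a trend over 0, 1 and 2 knock-in alleles. The shares of all genes called in these comparisons were 0.00658%, 0.00658%, 0.0132% and 0.00658%. The smallest adjusted p among the 10 was 0.384 in Cre/+ (*Thrb*), and 0.723, 0.74 and 0.801 in the other comparisons (*Mef2d*). At an unadjusted p under 0.05, 3 of the 10 were higher in Cre/+ (*Crx*, *Neurod1* and *Thrb*) and 0 lower, against 4.9% and 5.82% of all genes. In Cre/Cre the counts were 0 higher and 0 lower, against 1.58% and 5.39% of all genes. Between Cre/Cre and Cre/+ 0 of the 10 did so, against 6.58% of all genes, and 0 in the trend, against 6.24%. Without overlap between libraries, 4 of the 10 were higher in Cre/+ than in +/+ (*Crx*, *Otx2*, *Neurod1* and *Thrb*) and 0 lower, against 11.9% and 10.3% of all genes. In Cre/Cre, 0 were higher and 1 lower (*Mef2d*), against 2.7% and 8.05%. These counts of overlap were made on TPM without median-ratio scaling and were not repeated with it. Cre/Cre replicate 1, with a scaling factor of 0.917, held the lowest value of 38.6% of all genes. The comparisons with +/+ share the same 3 control libraries.

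The data set bounds on the size of a difference. In Cre/+ and in Cre/Cre, the 95% interval lay within a 1.5-fold change either way for 9 of the 10 genes, with *Rorb* as the exception, and within a 2-fold change for all 10. Of all 15198 genes tested, 12546 in Cre/+ and 12704 in Cre/Cre lay within 1.5-fold, and 14503 and 14506 within 2-fold. Most genes thus had bounds of this size. The median log2 fold change of the 10 genes was -0.03 in Cre/+ and -0.04 in Cre/Cre, beside 0.00 and -0.02 over all genes tested. With the Xist covariate these medians of the 10 were 0.03 and 0.06. Without Cre/+ replicate 1 or 3 the median in Cre/+ was 0.06 or 0.03, and without Cre/Cre replicate 1 that in Cre/Cre was 0.04. The count of 3 genes in Cre/+ at an unadjusted p under 0.05 was 1 with FPKM and 0 with coverage in place of TPM. It was 1 without +/+ replicate 2, Cre/+ replicate 2 or Cre/+ replicate 3, and 0 without +/+ replicate 3. Other settings left it at 3, among them median-ratio scaling, only the genotypes compared, and leaving out Cre/Cre replicate 1. In these 3 settings the unadjusted p of *Neurod1* was 0.00441, 0.000819 and 0.000889 in limma (adjusted p = 0.21, 0.128 and 0.16). For *Crx* it was 0.00859, 0.00445 and 0.00571 (adjusted p = 0.228, 0.152 and 0.177 in limma). The count of 0 in Cre/Cre was 2 without Cre/Cre replicate 1, both higher. These were *Neurod1* (log2 fold change 0.20, unadjusted p = 0.00251 in limma) and *Crx* (0.13, unadjusted p = 0.0251). The count was 1 higher without +/+ replicate 1 (*Thrb*) or with median-ratio scaling (*Crx*). It was 1 lower (*Mef2d*) without Cre/Cre replicate 3, or with FPKM, coverage, no filter, a replicate block, an Xist covariate or no robust prior.

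**Figure D5:**
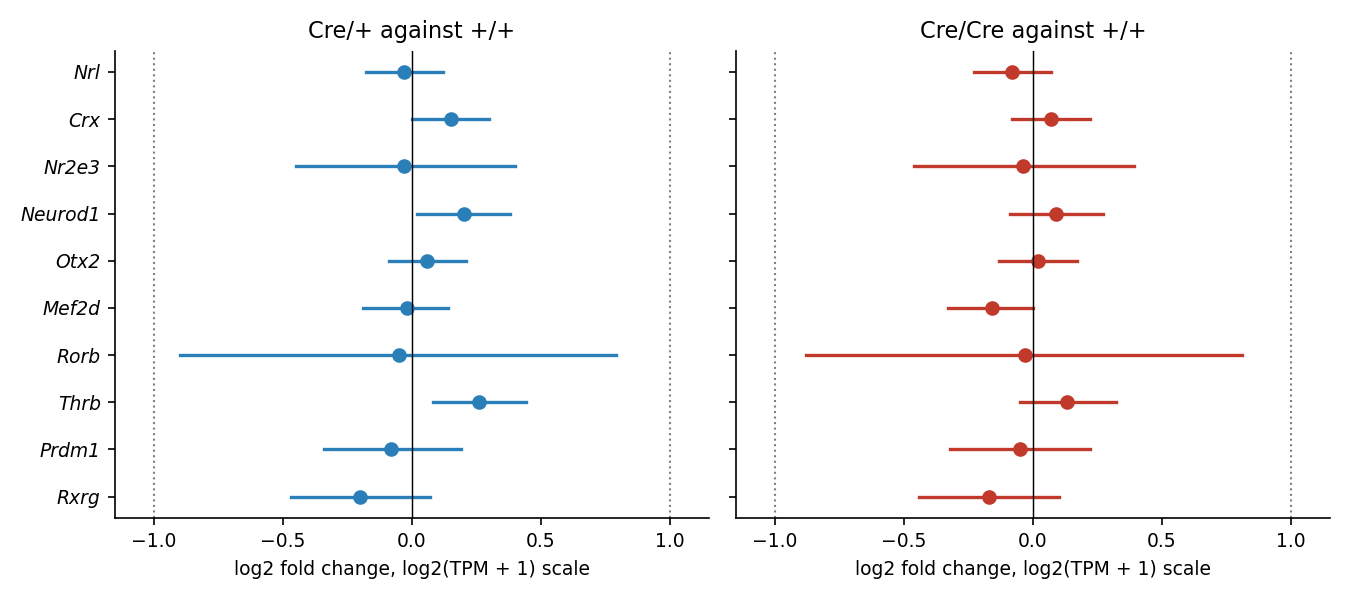
Log2 fold changes of the 10 genes in Cre/+ (left) and Cre/Cre (right) against +/+ on the log2(TPM + 1) scale, with 95% intervals from limma and dotted lines at 2-fold. All intervals lie inside the dotted lines, and the widest is that of *Rorb*, from -0.90 to 0.79 in Cre/+.

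A further 15 regulators of photoreceptor genes were *Rax*, *Samd7*, *Samd11*, *Lhx4*, *Sall3*, *Nr1d1*, *Esrrb*, *Casz1*, *Pias3*, *Nr2f1*, *Nr2f2*, *Onecut1*, *Onecut2*, *Pou2f1* and *Pou2f2*. All were among the genes tested, and 0 passed an adjusted p of 0.05 in limma in either comparison with +/+. At an unadjusted p under 0.05, 2 of them were lower in Cre/+ and 3 in Cre/Cre, and 0 higher in either, against 5.82% and 5.39% of all genes lower. With the Xist covariate 0 were lower in either and 1 was higher in Cre/Cre. The 2 in Cre/+ became 0 without +/+ replicate 3, Cre/+ replicate 2 or Cre/+ replicate 3 and 1 without +/+ replicate 2, and the 3 in Cre/Cre became 1 without +/+ replicate 2 or 3 or with only the genotypes compared. *Rax*, a retinal homeobox gene, was 188 ± 13.8 TPM in +/+ and 165 TPM in both other genotypes (SD 5.54 and 3.62), with log2 fold changes of -0.19 and -0.18 (adjusted p = 0.41 and 0.655 in limma). *Nr1d1*, a nuclear receptor of the clock that works with NR2E3, had a log2 fold change of -0.20 in Cre/+ (adjusted p = 0.415 in limma). In Cre/Cre, *Samd11*, a repressor in rods, was 439.5 ± 16.3 TPM against 495 ± 17.2 TPM in +/+ (log2 fold change -0.17, adjusted p = 0.664 in limma). *Onecut1*, which marks horizontal cells and early cone precursors, was 4.05 ± 0.762 TPM in Cre/Cre against 5.77 ± 0.641 TPM in +/+ (-0.43, adjusted p = 0.655 in limma). The log2 fold changes of the 15 genes ran from -0.43 to 0.23 in Cre/+ (median -0.04) and from -0.43 to 0.12 in Cre/Cre (median -0.09).

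Genes held to be targets of these factors were listed by cell, from knowledge of the field. Whether the factors regulate them in these retinas, and how far each is confined to its cell, was not tested. All 13 rod, 11 cone and 9 shared genes were tested, and 0 of the 33 passed an adjusted p of 0.05 in limma in Cre/+ or in Cre/Cre. The sum of the 13 rod genes was 63917 to 65795 TPM in +/+, 62467 to 65245 TPM in Cre/+ and 54562 to 63677 TPM in Cre/Cre, and that of the 11 cone genes 3298 to 3514, 3291 to 3460 and 3105 to 3456 TPM. These sums place photoreceptor RNA at a high level in every library. In Cre/+, 4 of the 33 were higher and 0 lower at an unadjusted p under 0.05, against 4.9% and 5.82% of all genes. The counts were 9 higher and 2 lower with only the genotypes compared, 7 and 2 with median-ratio scaling, 9 and 1 without Cre/Cre replicate 1, and 2 and 0 with FPKM or coverage, or without +/+ replicate 3, Cre/+ replicate 2 or Cre/+ replicate 3. The 4 genes include the cone channel subunit *Cngb3* (16.1 ± 1.65 TPM in +/+, 22.0 ± 1.33 TPM in Cre/+, adjusted p = 0.355 in limma) and the axoneme gene *Rp1* (866 ± 58.7 and 1070.5 ± 37.3 TPM, adjusted p = 0.365). Also among the 4 were *Impg1* and *Impg2*, of the matrix between photoreceptors. Their log2 fold changes in Cre/+ were 0.17 and 0.24 (adjusted p = 0.449 and 0.428 in limma). *Cnga1*, *Pde6a* and *Slc24a2*, at 0.21, 0.15 and 0.21, were not among the 4 (unadjusted p = 0.0637, 0.102 and 0.0725 in limma).

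In Cre/Cre, 1 of the 33 was higher and 5 lower at an unadjusted p under 0.05, against 1.58% and 5.39% of all genes. The lower count was 1 with the Xist covariate, 3 with no robust prior, and 2 with only the genotypes compared or without +/+ replicate 1 or 2. It was 9 without Cre/Cre replicate 2 and 8 without Cre/Cre replicate 3, and the higher count was 5 without Cre/Cre replicate 1 and 2 with median-ratio scaling. The cone arrestin gene *Arr3* was 648 ± 10.3 TPM in +/+ and 798 ± 54.5 TPM in Cre/Cre, with a log2 fold change of 0.30 (adjusted p = 0.542 in limma). *Gnb3*, the beta subunit of cone transducin, was 599 ± 34.3 TPM and 505.5 ± 28.5 TPM, with -0.24 (adjusted p = 0.543 in limma). *Pde6g*, the inhibitory subunit of the rod phosphodiesterase, had a log2 fold change of -0.18, and the recoverin gene *Rcvrn* one of -0.14 (adjusted p = 0.655 and 0.695 in limma). The 5 lower genes also include the cone genes *Opn1sw* and *Gngt2*, with -0.18 and -0.22 (adjusted p = 0.679 and 0.634 in limma). *Guca1b* and *Tulp1*, at -0.16 each, were not among the 5 (unadjusted p = 0.0586 and 0.0542 in limma). All 13 rod genes had a log2 fold change below 0 in Cre/Cre, with a median of -0.07, 11 did so with median-ratio scaling, and 7 without the library of Cre/Cre replicate 1, with a median of -0.02. Over all genes tested 8772 of 15198 were below 0.

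Markers of other cells were summed in the same way. All 8 bipolar, 8 amacrine, 3 horizontal, 8 Müller glial and 7 ganglion cell genes were above 0 in every library. The bipolar genes came to 1446 to 1657 TPM in +/+, 1545 to 1614 TPM in Cre/+ and 1232 to 1474 TPM in Cre/Cre. For amacrine genes the ranges were 1152 to 1196, 1150 to 1219 and 1014 to 1169 TPM, for horizontal genes 179.2 to 215.7, 200.2 to 223.9 and 161.9 to 212.1 TPM, and for Müller glial genes 5660 to 6294, 5808 to 6031 and 5153 to 6018 TPM. The Cre/Cre bipolar sums lay below those of Cre/+ without overlap, and in the other ranges of these 4 cell types the genotypes overlapped. They did not overlap for ganglion cell genes, at 1265 to 1303, 1209.5 to 1240 and 939.2 to 1128 TPM, or for 5 blood genes, at 150.5 to 181.7, 92.5 to 104.7 and 184.7 to 300.5 TPM, of which *Hba-a1*, *Hbb-bs* and *Hbb-bt* were at 0 in at least 1 library. The part of these sums in the values of the photoreceptor factors was not tested.

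For each factor, the gene whose profile over the 9 libraries was most like it was found from the root mean square difference of log2(TPM + 1), with each gene centred on its own mean. It was *Trappc8* for *Crx* (difference 0.021), *Lman2* for *Nrl* (0.020), *Ugcg* for *Neurod1* (0.020), *Epn2* for *Otx2* (0.023) and *Grk2* for *Mef2d* (0.033). For *Prdm1* it was Rab10os (0.043), for *Thrb* 2610008E11Rik (0.046), for *Rxrg* 6430571L13Rik (0.053) and for *Nr2e3* *Peak1* (0.068). The gene most like *Rorb* was *Pdc*, which encodes phosducin of photoreceptors, at a difference of 0.118 against a spread of *Rorb* itself of 0.357. *Pdc* was 4462, 4849 and 4385 TPM in +/+, 6202, 4278 and 4078 TPM in Cre/+, and 3141, 6215 and 4386 TPM in Cre/Cre, highest in the same libraries as *Rorb*. Since *Pdc* was chosen by its profile over these libraries, the shared peaks follow from the choice.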

How the data were processed

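Strand-specific, polyA-selected RNA-Seq libraries, each from the pair of retinas of 1 mouse, were trimmed with Trimmomatic, checked with FastQC, aligned with HISAT2 to mm10, converted with SAMtools and quantified with StringTie by the authors (tool versions and annotation not given in the sources used here). The deposited tables hold TPM, FPKM and mean coverage per base for each gene, and the authors made these values with StringTie without pooling replicates. The study's DESeq2 test on counts was not repeated, since the tables used here hold no counts.

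TPM was summed by gene name, genes with a mean of at least 1 TPM were kept, and log2(TPM + 1) was fitted with limma 3.58.1 in R 4.3.3 (trend and robust prior, 9 libraries, 6 residual degrees of freedom), with Benjamini-Hochberg adjustment over all 15198 genes and calls at an adjusted p of 0.05. The plan allowed for counts, and TPM was found. P-values measure the spread between the mice of a genotype. The script was tested on simulated data. Depth was 4.05 to 4.65 aligned gigabases per library, and intervals cover only the spread between libraries.

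The rule for the 10 members reads gene symbols only, but they and all gene lists were chosen with earlier results of these data known. Named are all members, the other regulators at an unadjusted p under 0.05, and for each member the gene with the most similar profile. Named too are the 2 genes of each target list (rod, cone, shared) with the smallest p in each comparison with +/+. *Impg1*, *Opn1sw* and *Gngt2* were added as further target genes at an unadjusted p under 0.05. They are not in the counts of sign changes below. Promoters are from RefSeq (GRCm38.p6), where all 10 members matched. The alternatives were FPKM, median-ratio scaling, a pseudocount of 0.1, no filter, only the genotypes compared, replicate blocks, an Xist covariate, no robust prior and leaving out each library. Coverage per aligned gigabase was added after seeing the data.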

Additional observations from a re-analysis of the deposited data

How the results depend on the processing

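Under every alternative that was run, 0 of the 10 factors and 0 of the 33 target genes passed an adjusted p of 0.05 in limma, and the smallest adjusted p of a factor ranged from 0.128 to 0.881 in Cre/+ and from 0.385 to 0.999 in Cre/Cre. Under settings other than leaving out a library, 5 log2 fold changes of named genes changed sign and 328 did not, and the medians over the 10 factors rose above 0 with the Xist covariate (0.03 in Cre/+ and 0.06 in Cre/Cre). The log2 fold change of *Otx2* in Cre/Cre was -0.03 with FPKM and -0.03 with coverage. With the Xist covariate, that of *Rorb* was 0.19 in Cre/+ and 0.46 in Cre/Cre, and that of *Prdm1* was 0.11 in Cre/Cre. The cause was not tested. Leaving out 1 library at a time changed the sign of 11 such fold changes and not of 322. In Cre/+ the range was -0.06 to 0.00 for *Nrl*, -0.10 to 0.10 for *Nr2e3*, -0.33 to 0.12 for *Rorb* and -0.07 to 0.04 for *Mef2d*. In Cre/Cre it was -0.21 to 0.16 for *Nr2e3*, -0.02 to 0.07 for *Otx2*, -0.34 to 0.23 for *Rorb* and -0.14 to 0.02 for *Prdm1*. Same-numbered libraries correlated between -0.116 and 0.128 in their deviations from the genotype means, so the replicate numbers were not taken to pair the mice. With the replicate block, 0 of the 10 factors were called, with smallest adjusted p of 0.48 (*Thrb*) in Cre/+ and 0.739 (*Mef2d*) in Cre/Cre in limma, and 2 and 1 of the 10 had an unadjusted p under 0.05. The trend was not run with only the genotypes compared. How coverage, 2.17 to 3.81 for *Rxrg*, limits what could be called was not tested.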
